A study of Arabidopsis thaliana with 20 samples.

Results

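The interval from day 4 to day 5 is the last of 5 in a time course of flowers that begin together in Arabidopsis thaliana. It was measured on 4 of the 20 two-colour microarrays of the series, which were chosen as those whose titles pair day 4 with day 5. The plants carry the transgene 35S:AP1-GR, in which the floral regulator AP1 is joined to a receptor domain that binds glucocorticoids and driven by the broadly active 35S promoter, in an ap1 cal background. Inflorescences were treated once with 1 µM dexamethasone, which activates the fusion protein, in 0.01% ethanol and 0.015% Silwet L-77. All days carry the same transgene, mutant background and treatment, and day 4 and day 5 differ in the time since the treatment. Each of 4 independent tissue sets was pooled from about 25 plants per time point, grown at 20 °C in constant light, and the tissue was taken near the inflorescence surface. Day 5 carried Cy5 in sets 1 and 3 and Cy3 in sets 2 and 4, so each array compares day 5 with day 4 of the same set. Sets kept without dexamethasone are not analysed here, and what AP1 does, what the hormone does and what passing time does cannot be told apart. The tissue is a mixture, and fewer cells of a type and less RNA per cell cannot be told apart.

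In ap1 cal plants, meristems that would form flowers behave as inflorescence meristems and multiply, and active AP1 turns them into flowers in near synchrony. A young flower bud first initiates sepals, then petals, stamens and carpels, while the stem cells at its centre are kept by a signalling loop between the peptide CLAVATA3 and the regulator WUSCHEL until the carpels form. As organs grow out, their cells begin to form reproductive tissue, cuticle, stomata and chloroplasts, each with its own regulators and enzymes.

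All changes below are log10 ratios of day 5 over day 4, so that 0.30 is about a doubling. The base of 10 was read from the deposited values, and directions are only likely, because the channel order had to be assumed. The 4 arrays gave values for 30169 to 30177 of 30194 probes, and precision is set by the small number of arrays. After probes of a gene were averaged, 28633 features were tested, 17185 of them genes with a name and the remainder probes without one. Of the 30194 probes, 1132 stood at the limit of the scale, which is 100-fold, on at least 1 of the 4 arrays, and none stood at the same limit on all 4 arrays once the ratios were turned. Across 26890 features below the limit, the arrays resembled each other weakly: with dye bias removed, Spearman's rho between arrays ran from -0.13 for sets 1 and 3 to 0.20 for sets 1 and 2, a description across features that share arrays and RNA processing. The tissue could be checked only in part, because 7 of 33 cell type markers were measured, none of them of phloem or xylem, and ratios give no level. Of these markers MUTE (stomata) and RCA (mesophyll) rose, CLV3 (stem cells) fell, and TRY (trichomes), AMS (tapetum), FAMA (stomata) and VGD1 (pollen) were not called, as given below; their part in other changes was not tested. VGD1 measured -0.024 (adjusted p = 0.941). Organ identity genes such as AP3 and AG are not analysed here.

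From day 4 to day 5, 161 features rose and 56 fell (limma, adjusted p under 0.05). This is 0.758% of the features tested, 0.562% for rises and 0.196% for falls. Of these features, 116 carry a gene name, 86 among the rises and 30 among the falls, which is 0.5% and 0.175% of the named genes tested. With the opposite channel order these would be 161 falls and 56 rises. In the order assumed, the rises were the larger changes: their median was 1.87-fold and the largest 8.88-fold, and 68 of 161 reached 2-fold, while the falls had a median of 1.52-fold, and 9 of 56 reached 2-fold. All 4 sets had the same sign in 158 of the 161 rises and 54 of the 56 falls, and 1 called feature, AT1G24200, had a probe at the limit on these arrays. At an unadjusted p under 0.05, 3241 features (11.3%) passed, 1534 higher (5.36%) and 1707 lower (5.96%). With the tissue set fitted as a block (sets blocked), 114 features passed, 91 higher and 23 lower, 113 of them among the 217. Fitted to the 4 arrays of the interval alone, none passed. Fits that left out 1 set called 73, 38, 60 and 97 features without sets 1, 2, 3 and 4, so each of the 4 sets moved the count by more than 1.5 times.

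**Figure D1:**
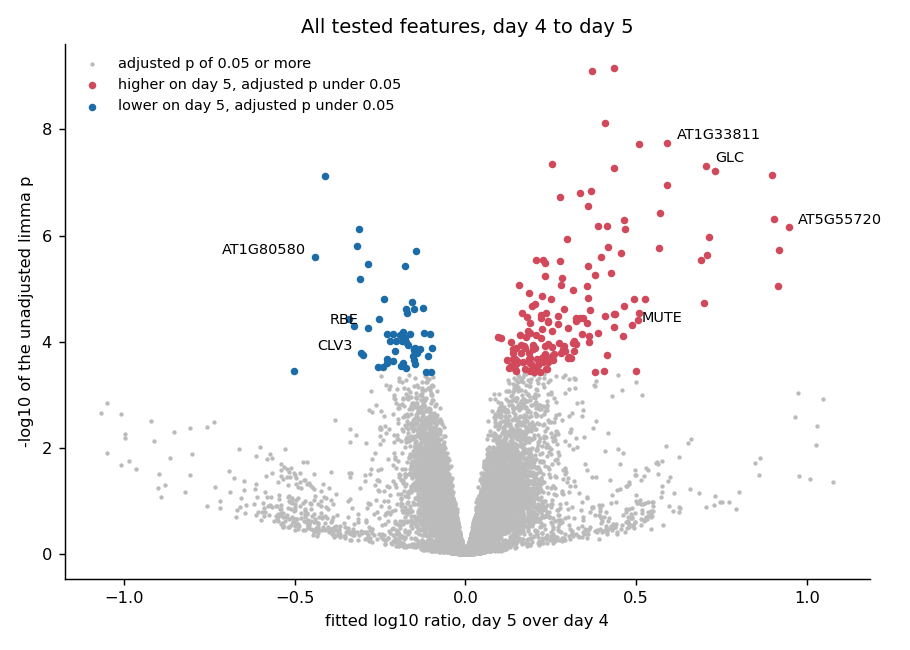
Fitted log10 ratio of day 5 over day 4 (x axis) against the -log10 of the unadjusted limma p (y axis) for the 28633 features tested, with the 161 rises and 56 falls coloured. The rises reach further from 0 than the falls. Of the 527 grey features at 2-fold or more, 455 had a probe at the scale limit on 1 or more of the 4 arrays.

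For most of the genes with the largest rises neither the array annotation nor the RefSeq table gives more than a locus number, and these are named by it without a role. The locus with the largest rise, AT5G55720, had log10 ratios of 1.06, 0.92, 1.15 and 0.67 in sets 1 to 4, an 8.88-fold rise (0.95 ± 0.21 SD, n = 4, adjusted p = 8.99e-04). All 4 sets lay far above 0 and set 4 was lowest. AT2G20870 had 1.18, 0.70, 1.46 and 0.34, an 8.32-fold rise (0.92 ± 0.50, adjusted p = 0.00178), with set 3 more than 1 unit above set 4. RXF26 (AT1G58430), which encodes an esterase and lipase of the GDSL family, had 0.94, 0.77, 1.42 and 0.48, an 8.01-fold rise (0.90 ± 0.40, adjusted p = 7.60e-04). AT3G12760 had 0.83, 0.75, 1.33 and 0.68, a 7.94-fold rise (0.90 ± 0.29, adjusted p = 1.96e-04). Set 3 was again the highest and the other 3 sets lay close together.

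GLC (GLAUCE, AT1G65450), an acyltransferase family gene known from endosperm development, had 0.61, 0.51, 1.05 and 0.65, a 5.07-fold rise (0.70 ± 0.23, adjusted p = 1.86e-04). AT1G33811 had the most even values of the large rises, 0.59, 0.47, 0.69 and 0.61, a 3.91-fold rise (0.59 ± 0.091, adjusted p = 1.09e-04). AT5G09780, listed as REM25 among the synonyms, belongs to a family of B3-domain regulators known from reproductive meristems. It had 0.66, 0.72, 0.54 and 0.45, a 3.88-fold rise (0.59 ± 0.12, adjusted p = 2.68e-04). These 3 genes were high in every set, the lowest value being 0.45. AT5G33370 rose 5.12-fold (adjusted p = 0.00199), and its 2 probes both rose but by unequal amounts, 0.37 and 1.05 on the log10 scale. The other large rises were AT3G56260 (5.18-fold), AT2G04570 (5.01-fold), AT2G42990 (4.91-fold), AT4G28780 (3.36-fold), AT2G38995 (3.23-fold) and AT5G22430 (3.21-fold). AT1G49200 rose 3.16-fold on average but unevenly, at 0.059 in set 1, 0.27 in set 2, 0.79 in set 3 and 0.88 in set 4 (adjusted p = 0.0474; 0.0988 with sets blocked).

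Set 3 gave the largest change in 13 of these 15 genes, and set 4 the smallest in 9. The median of the 15 genes was 0.66, 0.58, 1.05 and 0.45 in sets 1 to 4. The calls of AT3G12760, GLC, AT1G33811 and AT5G09780 held without any 1 of the sets, with adjusted p up to 0.0332. Without set 3 the calls of AT5G55720, AT2G20870 and AT3G56260 were lost (adjusted p 0.0515, 0.0788 and 0.0514), and without set 2 that of RXF26 (0.0508). Those of AT5G33370, AT2G04570, AT2G42990, AT4G28780, AT2G38995 and AT5G22430 were lost without set 1, 2 or 3 (adjusted p from 0.0537 to 0.147), and that of AT1G49200 without any 1 set (0.0513 to 0.478). Scaling the arrays to one spread ended the calls of AT5G22430 (adjusted p = 0.14) and AT1G49200 (0.0688).

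**Figure D2:**
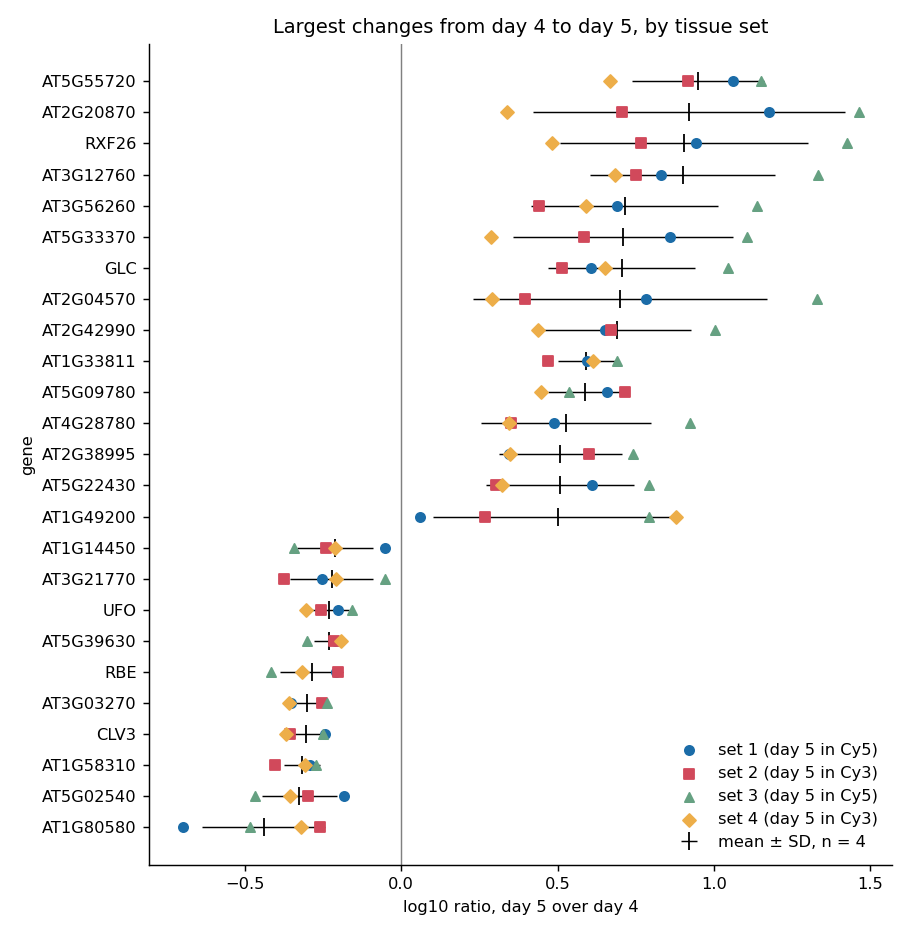
Log10 ratio of day 5 over day 4 (x axis) for the 15 genes with the largest rises and the 10 with the largest falls (y axis), with a point per tissue set and the mean ± SD of the 4 sets. Every point of a rise lies above 0 and every point of a fall below it, and set 3 lies furthest right in 13 of the 15 rises.

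Among the falls were 3 genes known from early flower meristems. CLV3 (AT2G27250), the peptide signal of the stem cells, had log10 ratios of -0.24, -0.36, -0.25 and -0.37 in sets 1 to 4, a 2.02-fold fall (-0.30 ± 0.066, adjusted p = 0.0297, which became 0.0922 when sets were blocked). RBE (RABBIT EARS, AT5G06070), a zinc-finger regulator of petal formation, had -0.21, -0.20, -0.42 and -0.32, a 1.93-fold fall (-0.29 ± 0.10, adjusted p = 0.0160). UFO (UNUSUAL FLORAL ORGANS, AT1G30950), an F-box gene that acts with LEAFY to promote petal and stamen identity, had -0.20, -0.26, -0.16 and -0.31, a 1.70-fold fall (-0.23 ± 0.065, adjusted p = 0.0186). All 3 genes were lower on day 5 in every set. Scaling the arrays to one spread ended all 3 calls (adjusted p = 0.0903, 0.229 and 0.13). The calls of CLV3 and RBE were lost without any 1 set (adjusted p from 0.0826 to 0.227 and from 0.0807 to 0.17). That of UFO was lost without set 1, 2 or 4 (0.0979, 0.232 and 0.227).

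These 3 genes stood among few measured members of their lists. In the shoot meristem and boundary list, 3 genes were measured and the other 2, LAS and LOB, measured -0.064 (adjusted p = 0.529) and -0.0096 (0.973). In the floral organ identity list, SEU, a co-repressor gene, measured 0.070 (adjusted p = 0.717). In the list of petal and organ growth and polarity, 1 of 7 genes fell and none rose, beside 0.196% and 0.562% of all features. There JAG, a zinc-finger gene of organ growth, measured -0.098 (adjusted p = 0.429), the YABBY genes YAB5 and YAB3 -0.20 (0.867) and -0.014 (0.971), and PTL, which limits growth between sepals, 0.0067 (0.988).

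The largest fall with the same sign in every set was that of AT1G80580, with -0.70, -0.26, -0.48 and -0.32, 2.76-fold (-0.44 ± 0.20, adjusted p = 0.00209). Its call was lost without set 2 or 3 (adjusted p = 0.0681 and 0.0566). AT1G58310 was even across sets, with -0.29, -0.40, -0.27 and -0.31, a 2.08-fold fall (-0.32 ± 0.058, adjusted p = 0.00166), and its call held without any 1 set (adjusted p up to 0.0478). AT5G02540 fell 2.12-fold (adjusted p = 0.0153), and the call was lost without set 2, 3 or 4 (adjusted p = 0.135, 0.133 and 0.135). AT3G03270 fell 2.00-fold, by 0.36 and 0.24 on the log10 scale in its 2 probes. AT5G39630, AT3G21770 and AT1G14450 fell 1.70-, 1.67- and 1.63-fold. With the set as a block the calls of these last 4 genes were lost (adjusted p = 0.0671, 0.0811, 0.0752 and 0.0704). Each was also lost without at least 3 of the sets (adjusted p from 0.0503 to 0.259), AT5G39630 and AT1G14450 without any of them. AT1G24200 was called at -0.50 (adjusted p = 0.0480), yet its values split by dye, at 0.28 in set 1 and 0.078 in set 3 but -1.13 in set 2 and -1.24 in set 4. One of its 2 probes stood at the limit of -2 in sets 2 and 4, beside 0.38 in set 1 and 0.28 in set 3, and the other measured 0.17, -0.26, -0.13 and -0.47 in sets 1 to 4. With values at the limit left out, the change was -0.096 (adjusted p = 0.722), so its call and size rest on values that are only bounds. Without a dye coefficient its adjusted p was 0.893, and with sets blocked 0.0628.

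None of 7 measured genes on the list for inflorescence identity and flowering was called, and the median was -0.074, beside -0.0017 over all features. The MADS-box genes AGL71, AGL72 and AGL24 were lower in all 4 sets. AGL71 had -0.29, -0.13, -0.26 and -0.12 (-0.20 ± 0.084, adjusted p = 0.0738), AGL72 had -0.34, -0.11, -0.057 and -0.22 (-0.18 ± 0.12, adjusted p = 0.108), and AGL24 -0.17, -0.21, -0.13 and -0.028 (-0.14 ± 0.078, adjusted p = 0.418). FD, the bZIP partner of the flowering signal, measured -0.074 (adjusted p = 0.61) and AGL42 -0.019 (0.945). The other 2 were above 0, GI, a clock and flowering gene, at 0.073 (adjusted p = 0.578) and PUCHI, an AP2-family gene of floral meristems, at 0.024 (0.963). In the MADS-box family as a whole, none of 62 measured genes was called and the median was -0.0081. At an unadjusted p under 0.05, 3 of the 62 were higher and 8 lower, beside 5.36% and 5.96% of all features.

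Regulators of the inner organs were among the smaller rises. SPL (SPOROCYTELESS, also NOZZLE, AT4G27330), which is needed to form spore mother cells in anthers and ovules, had log10 ratios of 0.18, 0.23, 0.19 and 0.070, a 1.46-fold rise (0.17 ± 0.067, adjusted p = 0.0112). It was the only one of 9 measured genes of the stamen and anther list to be called, where 0.562% of all features rose and 0.196% fell. The median of the list was -8.9e-04, and 4 of the 9 were above 0. EMS1, a receptor kinase gene of anther cell fate, measured 0.20 (adjusted p = 0.173), ROXY2, a glutaredoxin gene of anther development, 0.16 (0.183), ROXY1 -0.095 (0.433), and AMS, a regulator of the tapetum, -0.11 (0.706). The call of SPL was lost without set 1, 2 or 3 (adjusted p = 0.0916, 0.127 and 0.131).

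Of 12 measured genes of carpels and ovules 2 rose and none fell, where 0.562% and 0.196% of all features did. The list as a whole did not rise: its median was -0.015, and 5 of the 12 were above 0. Both called genes are NGATHA genes, B3-domain regulators that act together in style formation. NGA3 (AT1G01030) had 0.34, 0.23, 0.27 and 0.13, a 1.74-fold rise (0.24 ± 0.085, adjusted p = 0.0238; 0.0704 with sets blocked). NGA4 had 0.25, 0.29, 0.18 and 0.034, a 1.55-fold rise (0.19 ± 0.11, adjusted p = 0.0332; 0.0907 with sets blocked). Both were lowest in set 4. The other NGATHA genes measured -0.042 (NGA1, adjusted p = 0.906) and -0.023 (NGA2, 0.916), and NGA1 was at 0.32 in set 1 and below 0 in the other 3 sets. SPT, a bHLH regulator of the carpel margin, measured -0.028 (0.919). The call of NGA3 was lost without any 1 set (adjusted p from 0.0677 to 0.202) and that of NGA4 without set 1, 2 or 3 (0.151, 0.329 and 0.138). Arrays scaled to one spread gave adjusted p of 0.173 for NGA3 and 0.0719 for NGA4.

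MUTE (AT3G06120), the bHLH regulator that commits cells of the epidermis to form the guard mother cell of a stoma, had log10 ratios of 0.50, 0.53, 0.68 and 0.24, a 3.09-fold rise (0.49 ± 0.18, adjusted p = 0.0149). FAMA (listed as FMA), which acts after MUTE in the guard cell lineage, had nearly the same values, 0.49, 0.49, 0.45 and 0.26 (0.42 ± 0.11), but did not pass the test, which takes its spread from all 20 arrays (adjusted p = 0.413). The third measured gene of the stomatal list, STOMAGEN, a peptide that promotes stomata, stood at the scale limit on all 4 arrays with the sign of the dye and gives no ratio. Of the 6 stomatal markers, MUTE and FAMA were the 2 measured. The call of MUTE was lost without set 1, 2 or 3 (adjusted p = 0.125, 0.157 and 0.135) and with arrays scaled to one spread (0.0903). TRY, a trichome regulator and the only trichome marker measured, had -0.054 (adjusted p = 0.62).

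Of the cutin and wax list, 1 of 5 measured genes rose, RXF26 above, which had been listed with its value known. The cuticle regulators SHN3 and SHN2 measured 0.0052 (adjusted p = 0.993) and -0.0018 (1.00), and WSD1, a wax ester synthase gene, 0.15 (0.45). The median of the list was 0.154, and 4 of the 5 genes were above 0. At an unadjusted p under 0.05, 2 were higher, RXF26 among them, and 0 lower, beside 5.36% and 5.96% of all features. Because RXF26 was listed with its value known, the counts of this list cannot be set against those shares.

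Genes of chloroplast function lay above 0 with little passing the test. RCA (AT2G39730), the activase of the carbon-fixing enzyme Rubisco, had log10 ratios of 0.20, 0.15, 0.17 and 0.27, a 1.58-fold rise (0.20 ± 0.051, adjusted p = 0.0244). It was the 1 of 12 measured photosynthesis genes to pass, where 0.758% of all features did. Of the 12, 11 were above 0, with a median of 0.12. Over all features 47.7% were above 0. At an unadjusted p under 0.05, 8 of the 12 were higher and none lower, beside 5.36% and 5.96% of all features. ATPC1, a subunit of the chloroplast ATP synthase, measured 0.13 (adjusted p = 0.0973), the Calvin cycle enzyme genes SBPASE and PRK 0.083 (0.0837) and 0.091 (0.322), and the light-harvesting gene LHCB4.1 0.12 (0.337). All 7 measured genes of chlorophyll synthesis were above 0, with a median of 0.086, and none passed. HEME2 and HEME1 measured 0.095 (adjusted p = 0.101) and 0.086 (0.162), and PORB, which makes chlorophyllide in the light, 0.17 (0.305). The call of RCA was lost without any 1 set (adjusted p from 0.126 to 0.159) and with arrays scaled to one spread (0.0873). PSAE-1 and LHB1B2, also of this list, changed sign with the dye, from -0.23 to 0.74 and from -0.50 to 0.59.

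**Figure D3:**
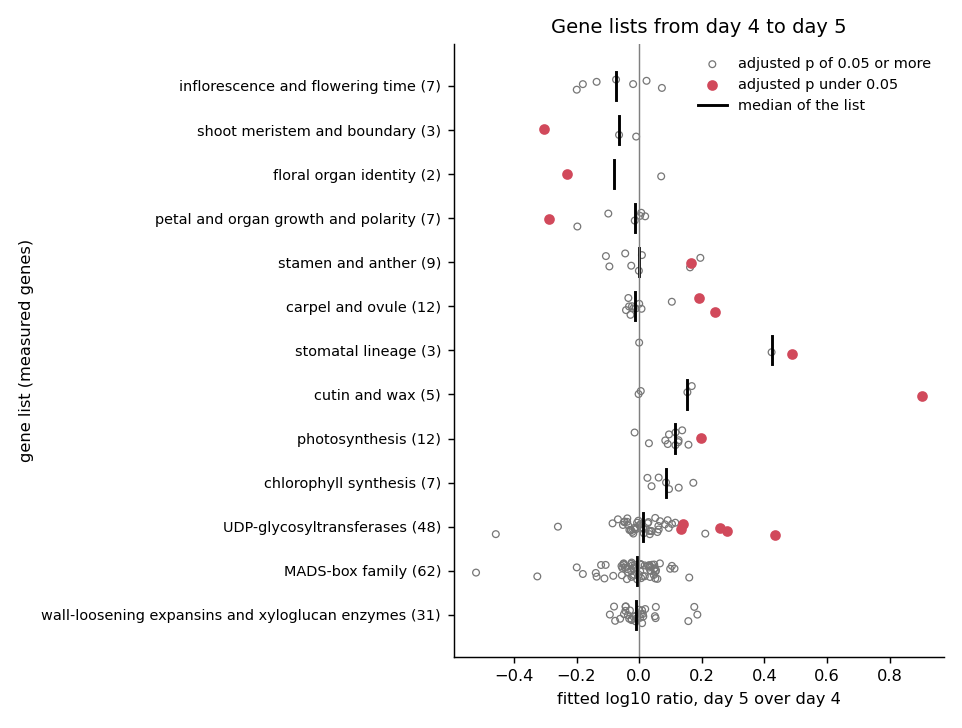
Fitted log10 ratio of day 5 over day 4 (x axis) for each measured gene of 13 lists (y axis, number of measured genes in brackets), with called genes filled and the median of each list as a black line. RXF26 stands furthest right at 0.90, CLV3, UFO and RBE are the filled points below 0, and the medians of photosynthesis and chlorophyll synthesis lie at 0.12 and 0.086.

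Among the enzyme families matched by symbol, the UDP-glycosyltransferases, which attach sugars to small molecules, had the most called members. Genes with only a locus number, as most of the largest rises are, could not be placed in a family. The list of GDSL esterases and lipases, for example, held 1 measured gene, at -0.087, and did not hold RXF26. Families as a whole can therefore not be ranked here. Of 48 measured genes 5 rose and none fell, where 0.562% and 0.196% of all features did, and the median of the family was 0.013. UGT73C1 (AT2G36750) had 0.54, 0.49, 0.40 and 0.30, a 2.72-fold rise (0.43 ± 0.10, adjusted p = 0.0113). UGT85A5 had 0.48, 0.14, 0.23 and 0.27, a 1.91-fold rise (0.28 ± 0.15, adjusted p = 0.00493), and UGT76E11 0.33, 0.39, 0.17 and 0.15, a 1.81-fold rise (0.26 ± 0.12, adjusted p = 0.0299; 0.0608 with sets blocked). UGT85A3 rose 1.38-fold (adjusted p = 0.0342; 0.1 with sets blocked) and UGT85A2, named after its value was seen, 1.36-fold (0.0224). UGT85A2, UGT85A5 and UGT85A3 are neighbours on chromosome 1, and since probe sequences were not used here, cross-hybridisation between them was not tested. Without 1 set, adjusted p reached 0.133 for UGT73C1 and 0.0998 for UGT85A5, 0.227 for UGT76E11 and 0.371 for UGT85A3. Those calls were lost without sets 1, 2 and 3 for UGT73C1, sets 3 and 4 for UGT85A5, any set for UGT76E11 and sets 1, 2 and 4 for UGT85A3. Arrays scaled to one spread gave 0.0623 for UGT73C1, 0.137 for UGT76E11 and 0.0575 for UGT85A3.

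WRKY53, a transcription factor gene known from leaf senescence, was the 1 of 5 measured genes of touch and wounding to rise, with 0.17, 0.046, 0.35 and 0.16, 1.51-fold (0.18 ± 0.12, adjusted p = 0.0121). It was lost without set 1, 3 or 4 (0.0973, 0.115 and 0.155). Over all features, 0.562% rose and 0.196% fell. Lists added after values were seen held 4 further calls, and their counts cannot be set against these shares because they were chosen with values known. In the serine carboxypeptidase-like genes, a family of secreted enzymes, 1 of 33 rose and 1 fell: scpl35 rose 1.96-fold (adjusted p = 0.0280; 0.0608 with sets blocked) and scpl48 fell 1.48-fold (0.0112). PUB22, a U-box ubiquitin ligase gene known from immune signalling, had 0.16, 0.55, 0.33 and 0.42, a 2.31-fold rise (adjusted p = 0.0224; 0.0563 with sets blocked), and was 1 of 11 measured U-box genes to be called. Of 6 measured REM genes, AT5G09780 above was the 1 to rise. The calls of PUB22 and scpl35 were lost without any 1 set (adjusted p from 0.0618 to 0.285), and that of scpl48 without set 1, 2 or 3 (0.133, 0.202 and 0.0655). Arrays scaled to one spread ended all 3 (0.0685, 0.148 and 0.0586).

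Several large lists held no call. None of 31 measured genes of expansins and xyloglucan enzymes, which loosen cell walls, passed, with a median of -0.010, and EXPB3 and EXPA8 measured 0.19 (adjusted p = 0.157) and 0.18 (0.193). None of 26 cytochromes P450 passed (median 0.038), none of 16 measured genes of the sugar transport and metabolism list (0.0042), none of 13 auxin genes (-0.0056), none of 10 autophagy genes (-0.030) and none of 7 tubulins (0.052). In the auxin list the synthesis gene YUC6 measured 0.15 (adjusted p = 0.185). None of the 6 measured genes of the mitotic cell cycle passed, with values from -0.037 to 0.049. Of the 13 measured histone genes none passed, and several alternated with the dye, such as AT1G09200 at 0.62, -0.57, 0.85 and -0.77 in sets 1 to 4. At an unadjusted p under 0.05, the expansin list held 2 genes higher and 3 lower, the cytochromes P450 4 higher, sugar genes 3 higher and 2 lower, auxin 1 and 1, autophagy 2 lower, histones 3 higher, and the tubulins and the cell cycle none. Over all features, 5.36% were higher and 5.96% lower at this threshold.

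To set the interval against the early ones, day 4 to day 5 was compared with the mean change per interval from day 0 to day 3, which shares no tissue with day 4 or day 5. The difference passed for 347 features (1.21%), 175 higher (0.611%) and 172 lower (0.601%). Of these, 142 also passed within day 4 to day 5, 103 of them with a positive and 39 with a negative difference. Within the interval 0.758% of all features passed, but the difference contains the same day 4 to day 5 change, so overlap is built in. The count of 347 became 193 with sets blocked and 164 with arrays scaled to one spread. It fell to 19 when set 2 was left out, and was 231, 163 and 127 without sets 1, 3 and 4. In the first 3 intervals, 950, 329 and 120 features passed (3.32%, 1.15% and 0.419%).

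In the first 3 intervals 3.32%, 1.15% and 0.419% of all features were called, so most features were called in none of them. Of the 161 rises, 129 were called in none of these intervals and 32 in 1 or more. From day 0 to day 1, 5 of the 161 had been called higher and 17 lower, where 1.15% and 2.17% of all features were called. From day 1 to day 2, 3 were higher and none lower (0.733% and 0.416% of all features), and from day 2 to day 3, 11 higher and none lower (0.374% and 0.0454%). Of the 56 falls, 40 were called in none of these intervals and 16 in 1 or more. From day 0 to day 1, 9 of the 56 had been called higher and 1 lower, and from day 1 to day 2, 4 higher and 3 lower.

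RBE had the largest negative difference among named calls. It had risen in all 4 sets from day 0 to day 1 (0.52 ± 0.11, adjusted p = 4.01e-05) and from day 1 to day 2 (0.58 ± 0.11, 1.59e-04), measured 0.016 ± 0.14 from day 2 to day 3, and then fell. The difference was -0.66 ± 0.061 (SE, adjusted p = 1.24e-04) and held without any 1 set (adjusted p up to 0.0226). UFO had risen from day 0 to day 1 (0.30 ± 0.13, adjusted p = 8.14e-04), with a difference of -0.31 ± 0.050 (adjusted p = 0.00463), lost without set 2 or 4 (0.124 and 0.0773). CLV3 was not called in any of the first 3 intervals, and its difference was -0.32 ± 0.072 (adjusted p = 0.0431; 0.111 with sets blocked), lost without any 1 set (0.0561 to 0.227). Those of AT1G80580 and AT5G02540 were -0.42 (adjusted p = 0.00711) and -0.30 (0.0464; 0.107 with sets blocked), and that of AT1G24200, whose values split by dye and include values at the limit, -0.60 (0.0309). These 3 were each lost without 3 of the sets. Arrays scaled to one spread ended the differences of AT1G80580 (0.0583), AT5G02540 (0.0991), CLV3 (0.0869) and AT1G24200 (0.282).

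Among named genes, the largest positive differences that also passed within the interval were those of RXF26 (0.82 ± 0.13, adjusted p = 0.00410), AT3G12760 (0.82 ± 0.11, 0.00174), AT5G55720 (0.79 ± 0.14, 0.00879), AT3G56260 (0.72 ± 0.11, 0.00341), GLC (0.70 ± 0.085, 6.73e-04) and AT1G49200 (0.69 ± 0.13, 0.0123). GLC had measured between -0.074 and 0.065 in the first 3 intervals, and its difference held without any 1 set (adjusted p up to 0.0300). The other 5 were lost without at least 2 of the sets. RXF26, AT5G55720 and AT1G49200 were lost without 3 of them, with adjusted p up to 0.105, 0.121 and 0.204, and AT5G55720 also with arrays scaled to one spread (0.0727). AT3G12760 was lost without set 2 or 3 (0.0604 and 0.0501) and AT3G56260 likewise (0.055 and 0.0607).

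Other genes differed after an earlier rise. SWEET1, a sugar transporter gene, measured 1.00, 0.32 and 0.11 in the first 3 intervals and -0.10 from day 4 to day 5, a difference of -0.58 ± 0.059 (adjusted p = 1.81e-04). REM22 measured 0.61, 0.74, 0.51 and then 0.10 (difference -0.52, adjusted p = 0.00678), JAG 0.35, 0.30, 0.14 and -0.098 (-0.36, 0.00263), NGA2 0.11, 0.43, 0.38 and -0.023 (-0.33, 0.00411) and TRY 0.37, 0.12, 0.15 and -0.054 (-0.27, 0.00407). None of these 5 was called within day 4 to day 5. The difference of SWEET1 held without any 1 set (adjusted p up to 0.0388), that of JAG was lost without set 2 (0.0947), those of REM22 without set 1 or 2 (0.0567 and 0.134) and of NGA2 and TRY without set 2 or 4 (0.132 and 0.0723 for NGA2, 0.0661 and 0.0723 for TRY). Arrays scaled to one spread ended those of REM22 (0.0869) and TRY (0.0584). AT5G22430 showed no such difference (0.0011, adjusted p = 1.00) and had already risen by 0.93 from day 0 to day 1 (adjusted p = 2.46e-05).

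**Figure D4:**
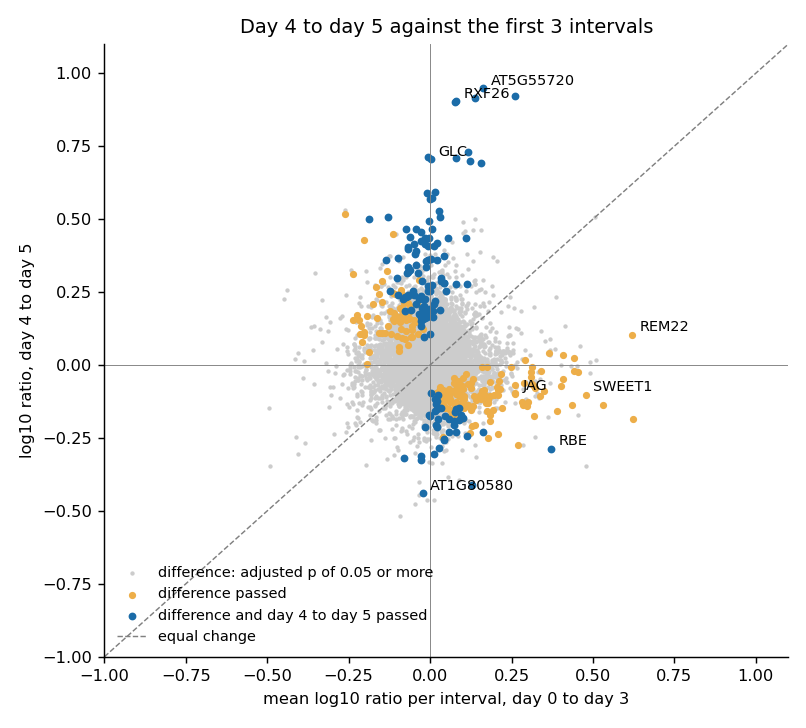
Log10 ratio of day 5 over day 4 (y axis) against the mean log10 ratio per interval from day 0 to day 3 (x axis) for features with no probe at the scale limit on the 4 arrays, with the line of equal change dashed. RXF26 and AT5G55720 lie above the line, at 0.90 and 0.95 on the y axis, while RBE, SWEET1 and REM22 lie to the right and below it. AT5G55720 had measured 0.13, 0.27 and 0.086 in the first 3 intervals.

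The interval before it, day 3 to day 4, shares its day 4 tissue with day 4 to day 5, so their difference was taken within each set. That leaves at most 4 differences per feature and few degrees of freedom, so a lack of calls cannot show that the intervals are alike. No feature passed (limma, adjusted p under 0.05), in the full fit, with arrays scaled to one spread, with limit values missing or without any 1 set, and 948 (3.31%) had an unadjusted p under 0.05, 447 higher (1.56%) and 501 lower (1.75%). The intervals had 387 calls (1.35%; 0.981% higher and 0.37% lower) and 217 calls. Side by side, MUTE measured 0.71 ± 0.19 from day 3 to day 4 and 0.49 ± 0.18 from day 4 to day 5, NGA3 0.43 ± 0.044 and 0.24 ± 0.085, SPL 0.16 ± 0.081 and 0.17 ± 0.067, and RXF26 0.61 ± 0.40 and 0.90 ± 0.40. GLC measured 0.20 ± 0.21 and 0.70 ± 0.23, and AT5G09780 0.38 ± 0.22 and 0.59 ± 0.12. Among the falls, AT1G80580 measured -0.49 ± 0.26 and -0.44 ± 0.20, UFO -0.19 ± 0.080 and -0.23 ± 0.065, CLV3 -0.21 ± 0.15 and -0.30 ± 0.066 and RBE -0.17 ± 0.078 and -0.29 ± 0.10.

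**Figure D5:**
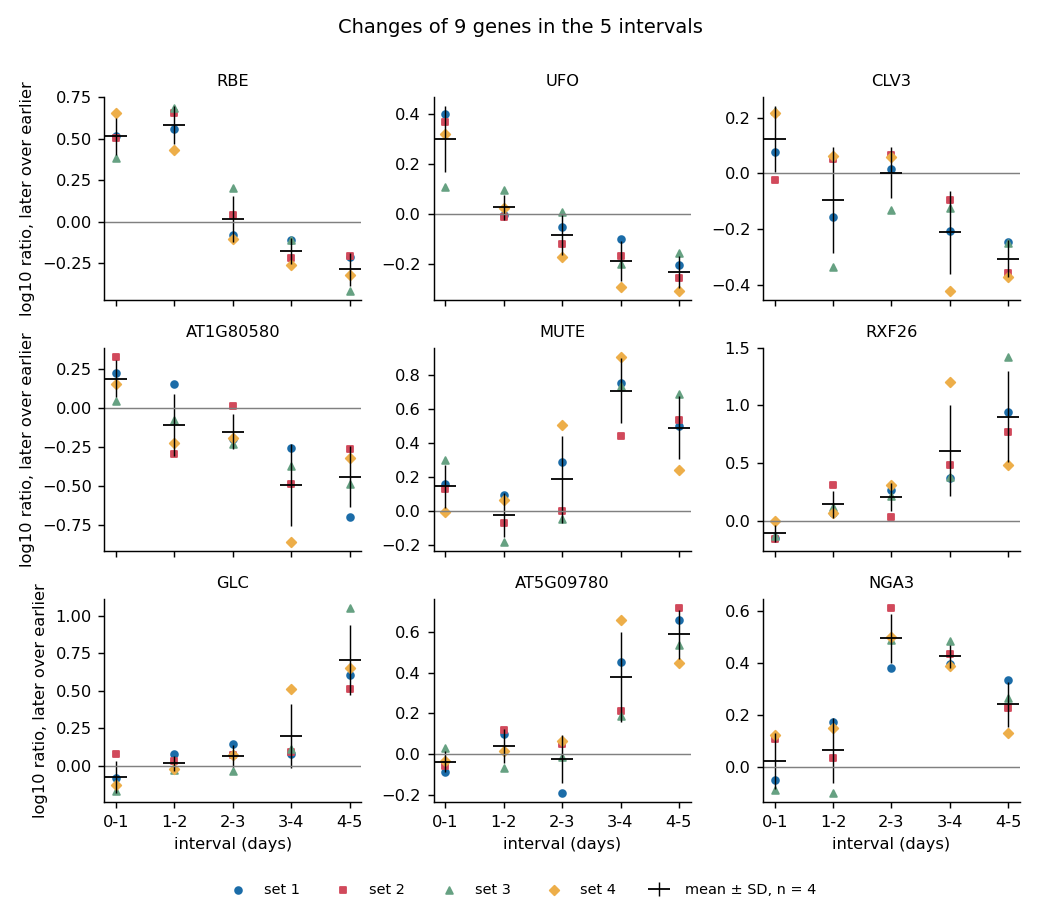
Log10 ratio of the later over the earlier day (y axis, own scale in each panel) in the 5 intervals (x axis, days) for 9 genes, with a point per tissue set and the mean ± SD of 4 sets. RBE and UFO lie above 0 from day 0 to day 1 and below it from day 4 to day 5, and GLC lies near 0 until day 3.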

How the data were processed

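Transcript ratios were measured on 20 two-colour arrays, 4 per interval, with 2 consecutive days of a tissue set on each. RNA was amplified by in vitro transcription, per the labels' protocols, and the product dyed with Cy3 or Cy5. The authors deposited 1 log ratio per probe and array. The deposited numbers are taken here as log10 ratios of Cy5 over Cy3, since they stop at exactly 2 and -2. Not given in the sources used here: background correction, normalization, numerator and log base. Array medians of the interval lay between -0.00333 and 0.00993 as deposited, so the arrays had likely been centred. As deposited, 375 probes stood at the upper limit on all 4 arrays under both dye assignments, so ratios follow the dyes, and arrays with day 5 in Cy3 were turned. Values at the limit were kept.

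Of 30741 spots, 547 control or unannotated ones were left out. Of 30194 probes, 18740 had 1 gene name, 1 had several and 11453 had none. Names were updated through the RefSeq table of TAIR10.1, which matched 18645 probes. Probes of a gene were averaged, and a feature needed values on 3 of 4 arrays of every interval.

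The fit used limma 3.58.1 in R 4.3.3 on the full set of 20 arrays, with a coefficient for each of 5 intervals and 1 for the dye (14 residual and 2.07 prior degrees of freedom), two-sided tests, Benjamini-Hochberg adjustment over all features and a threshold of 0.05. It was also run on simulated arrays with independent noise. That run held neither tissue shared between arrays nor the scale limit, so it cannot test the fit for these. The main fit treated the 20 arrays as independent. Sets paired arrays only in the difference from day 3 to day 4 and, as an alternative, in the fit with the set as a block. That pairing was used because the series design puts the same tissue on consecutive arrays. Residuals of arrays of the same set had a median Spearman's rho of -0.159 over 16 pairs of consecutive intervals and -0.0473 over 24 other pairs. Named genes are the 15 largest rises and 10 largest falls with 1 name and the same sign in all sets, up to 4 called and 4 uncalled genes per list, and the 6 largest differences of each sign from the first 3 intervals. The interval, lists and rules were chosen with earlier results of these data known, and 3 lists were added after values were seen. Lists were matched by symbol and synonym and often held few or no measured genes, and 2 symbols that the table gives to other genes were taken out.

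Alternatives were the set as a block, no dye coefficient, arrays scaled to one spread, fewer arrays, limit values missing, single probes, other filters, robust empirical Bayes and leaving out each set.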

Additional observations from a re-analysis of the deposited data

Results flagged for a closer look

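For 81 of the 116 called genes with a gene name, the change from day 4 to day 5 also differed from the mean change of the first 3 intervals. Over all features the difference passed for 347 (1.21%). It contains the same day 4 to day 5 change by which the genes were called, so overlap is built in. The test was that of the difference itself (limma, 14 residual degrees of freedom, adjusted p under 0.05). AT1G33811, for example, passed it at 0.58 (adjusted p = 5.09e-04). Only the 12 with the largest differences of each sign are listed here. The differences were 0.82 for RXF26 and 0.82 for AT3G12760, 0.79 for AT5G55720, 0.72 for AT3G56260, 0.70 for GLC and 0.69 for AT1G49200. They were -0.66 for RBE, -0.60 for AT1G24200 (which has values at the scale limit), -0.42 for AT1G80580, -0.32 for CLV3, -0.31 for UFO and -0.30 for AT5G02540. RBE was above 0 in all 4 sets from day 0 to day 1 and from day 1 to day 2, and below 0 in all 4 from day 4 to day 5. In the 39 named genes no set stood apart from the other 3 by Dixon's criterion at 95%, where chance gives about 1 in 20.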

How the results depend on the processing

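The count of 217 features from day 4 to day 5 became 114 with the set as a block and 93 with arrays scaled to one spread, 0 when the 4 arrays were fitted alone (1142 at an unadjusted p under 0.05), and 38 to 97 without 1 set. The 347 features that differed from the first 3 intervals became 193 with the block, 229 without the dye coefficient, 164 with scaled arrays and 19 to 231 without 1 set, 19 when set 2 was left out. The share of rises among the calls was 74.2%, and 89.5% without set 2 and 84.5% without set 4, which would be shares of falls with the opposite channel order. Under all other alternatives both counts stayed within 1.5 times. No feature was called as different between day 3 to day 4 and day 4 to day 5 in any of the 7 fits run. Each of these used at most 4 differences per feature, too few to show that the intervals are alike. The cause of these shifts was not tested, beyond fewer arrays leaving fewer degrees of freedom.

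All 39 named genes kept their direction in every fit. Their calls were lost for 13 with the block, 5 without the dye coefficient, 18 with scaled arrays, 39 on the 4 arrays alone, 9 without the arrays of day 3 to day 4, 1 (AT1G24200, from -0.50 to -0.096, adjusted p = 0.722) with limit values missing, and 27, 29, 29 and 18 without sets 1 to 4. Of the 39, 5 kept their call without any 1 set and 11 lost it without each of them. With the replicate block, AT1G49200 and CLV3 are examples of calls that were lost; the block changed no other call of named genes than those given. Spot brightness is not part of the values used here, and dim probes could not be told from bright ones.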

Other observations

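Of the 217 calls, 75 of the 161 rises and 26 of the 56 falls were unnamed probes. The largest rise among them was 8.23-fold, and 2 reached 5-fold. The largest fall was 2.59-fold. Nothing further can be said of what they encode.

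The sets differed in when the large rises were measured. From day 3 to day 4, set 4 gave the largest change in 14 of the 15 genes with the largest rises, with a median of 0.84 against 0.11, 0.16 and 0.25 in sets 1, 2 and 3. From day 4 to day 5 the same set had the lowest median, 0.45, and set 3 the highest, 1.05. Both intervals of a set hold the same day 4 tissue, and the part of that tissue in these values was not tested.

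Called genes that are neighbours on a chromosome numbered 3 pairs. The UGT85A genes rose together. AT5G51510 and AT5G51520 moved in opposite directions, falling 1.31-fold and rising 2.01-fold, and were named after their values were seen.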
